A study of Arabidopsis thaliana with 17 samples.

Results

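Anthocyanins are the red and purple flavonoid pigments that Arabidopsis leaves accumulate under strong light and other stress. Their synthesis leaves the flavonol branch at dihydroflavonol reductase, which makes the leucoanthocyanidins. Its later steps include glycosyltransferases that load sugars onto the anthocyanidin and so stabilise the pigment. DFR (AT5G42800) encodes the reductase, AT4G14090 (UGT75C1) and UF3GT (AT5G54060, also named UGT79B1) encode glycosyltransferases that act on anthocyanins, and UGT78D2 (AT5G17050) encodes a flavonoid glucosyltransferase that serves both anthocyanidins and flavonols. These 4 genes, chosen with earlier results of these data known, are described here out of 13286 genes that the array annotation ties to a probe set of their own. DFR, AT4G14090 and UF3GT are called the late genes below, and UGT78D2 is the gene shared with flavonols.

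The samples were rosette leaves of Arabidopsis thaliana plants of 4 weeks, measured on 17 ATH1 arrays, each with 5 µg of total RNA from a pool of 10 plants that the design text calls a biological replicate. Of the 7 genotypes, Col-0 (3 arrays) and Wassilewskija (2) are wild types. Single mutants were stn7-1 (3 arrays), psad1-1 (2) and psae1-3 (2), and combined mutants psad1-1 stn7-1 (3) and psae1-3 stn7-1 (2). STN7 is the thylakoid kinase that phosphorylates the light-harvesting antenna of photosystem II in response to the redox state of the electron transport chain, while the proteins PSAD and PSAE sit on the stromal face of photosystem I and help to dock ferredoxin. The series title refers to mutants of the LTR, the long-term response to light quality. The labels give 1 allele per mutated gene and do not state the parent accession of any mutant line.

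Values are MAS5 signals on a linear scale, brought here to a trimmed mean of 100 on every array. As deposited, Col-0, stn7-1, psad1-1 and psad1-1 stn7-1 (11 arrays, the first set) had a trimmed mean of 100 and Wassilewskija, psae1-3 and psae1-3 stn7-1 (6 arrays, the second set) one of 500. Since no genotype spans the sets, the accession of a line and its array set cannot be told apart, and a mutant is compared with the wild type measured in the same set. A signal of 8.15, the 95th percentile of control probe sets without a target, is taken as background. PSAE-1 (AT4G28750), the only mutated gene with a listed probe set, read 23.7 to 63.2 in psae1-3 and 5.25 to 10.4 in psae1-3 stn7-1, against 3253 to 5105 on the other arrays. The mesophyll markers RCA and PRK (2 of 8 markers listed) were high on all 17 arrays, at 3198 to 6704, and no marker of flower, seed or epidermis (10 genes) was listed. Pools of whole leaves cannot tell fewer pigmented cells from less RNA per cell.

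The late genes read lower than the wild type of the set on every mutant array, whereas UGT78D2 was lower in some mutants and higher in another. In the tests below, a gene passed at a limma Benjamini-Hochberg adjusted p of 0.05 over 13648 probe sets. Against Col-0, all 4 genes were lower in stn7-1, where 9.17% of all tested probe sets were lower. In psad1-1 the 3 late genes were lower (background 21.1%) and UGT78D2 did not pass. In psad1-1 stn7-1, AT4G14090 and UF3GT were lower (background 21.6%), DFR did not pass, and UGT78D2 was higher (background 19.2%). Against Wassilewskija, all 4 genes were lower in psae1-3 (background 6.90%) and the 3 late genes in psae1-3 stn7-1 (background 8.79%). The median change of the 4 genes was −2.70 log2 in stn7-1, −2.35 in psad1-1, −1.78 in psad1-1 stn7-1, −3.38 in psae1-3 (−2.90 with signals under the background raised to it) and −3.10 in psae1-3 stn7-1. Over all tested probe sets the same medians were −0.03, −0.02, −0.02, −0.11 and −0.05 log2. The mutants of one set share their wild-type arrays, so their changes are not independent of each other.

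**Figure D1:**
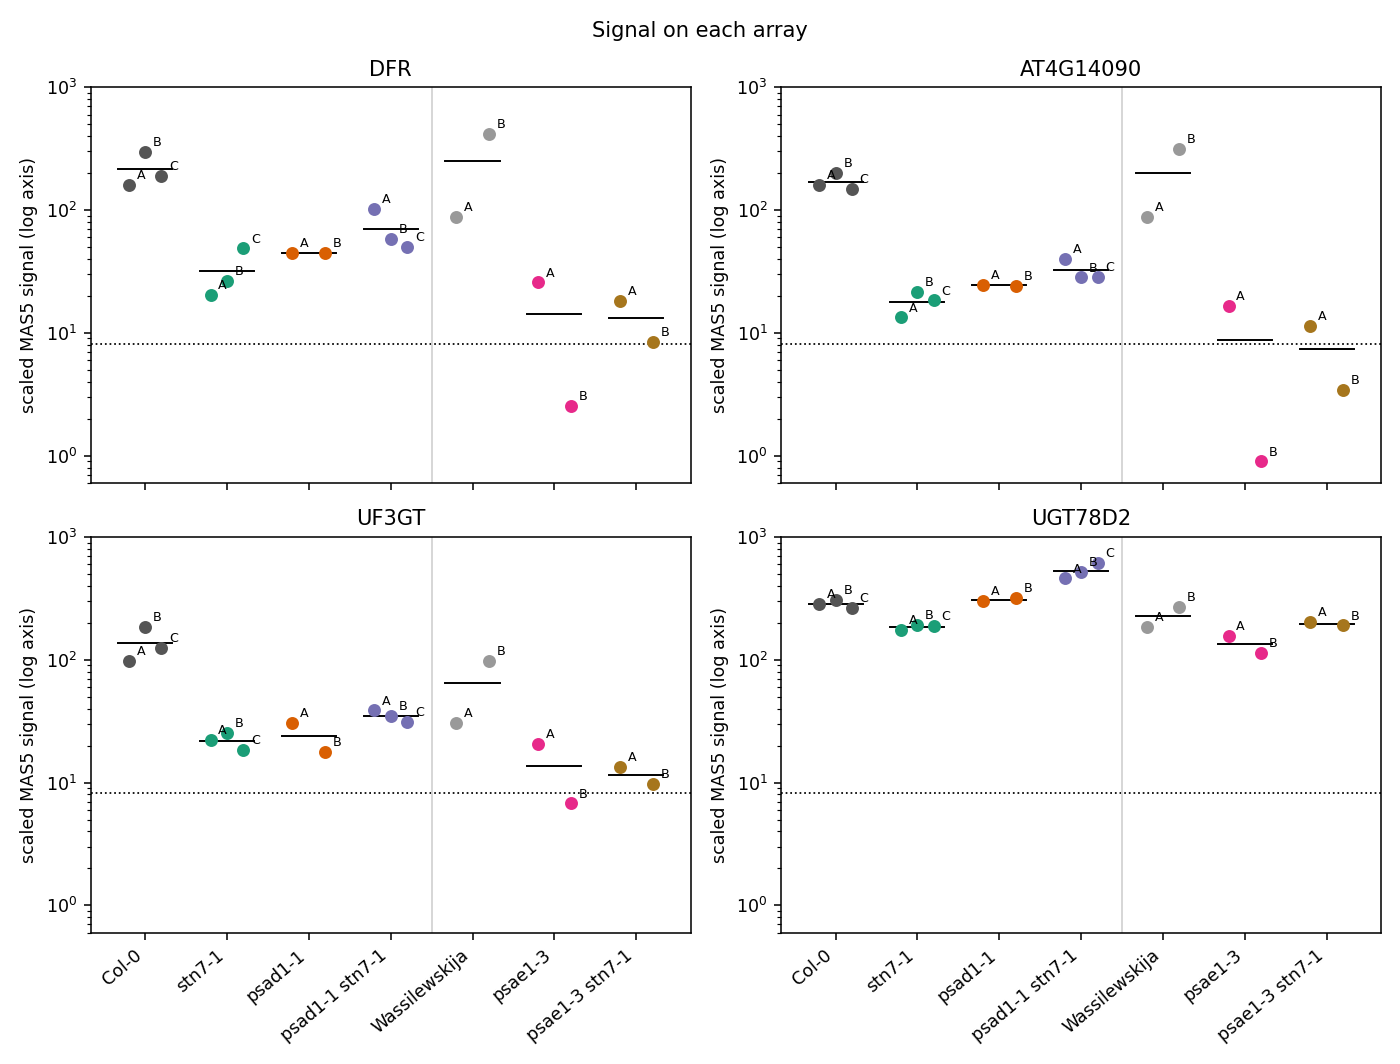
Signal of each array (points, with the replicate letter) and mean of each genotype (bars) for the 4 genes, on a log axis of the scaled MAS5 signal. The dotted line is the background of 8.15 and the vertical line separates the 2 array sets. All wild-type points of DFR, AT4G14090 and UF3GT lie above all mutant points of their set, while UGT78D2 in psad1-1 stn7-1 (460 to 614) lies above Col-0 (267 to 309).

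DFR, at the branch point, read 160, 296 and 188 in Col-0. It read 20.4, 26.6 and 48.7 in stn7-1 and 44.9 and 45.1 in psad1-1. In psad1-1 stn7-1 it read 102, 58.0 and 50.2. Every Col-0 array was above every mutant array of the set, and the psad1-1 arrays lay within the range of stn7-1. By limma, DFR fell 6.97-fold in stn7-1 (−2.80 log2, SE 0.67, adjusted p = 0.00933) and 4.62-fold in psad1-1 (−2.21 log2, SE 0.75, adjusted p = 0.0273). The call in psad1-1 was lost when replicate B of Col-0 (0.0759), or either psad1-1 array (A 0.101, B 0.111), was left out. In psad1-1 stn7-1 the difference of −1.64 log2 (SE 0.67, adjusted p = 0.0625 by limma) missed the threshold. It passed when the floor under low signals was raised to the 25th percentile (0.018) or when only the first set was fitted (0.00142).

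In the second set DFR read 87.4 and 417 in Wassilewskija, 25.8 and 2.56 in psae1-3 and 18.2 and 8.39 in psae1-3 stn7-1. The 2 wild-type arrays differed 4.77-fold and the 2 psae1-3 arrays 10.1-fold, yet the groups did not overlap with the wild type. In psae1-3 replicate B DFR was under the background, so the fall in psae1-3 (−4.56 log2, SE 0.82, limma adjusted p = 0.00277) is given as at least 13.2-fold. That limit was 28.8-fold without Wassilewskija replicate A, 6.03-fold without Wassilewskija replicate B and 23.4-fold without psae1-3 replicate A. Without psae1-3 replicate B, with no signal under the background left, the fall was 7.41-fold. The fall in psae1-3 stn7-1 was 15.4-fold (−3.95 log2, SE 0.82, limma adjusted p = 0.00357), a call lost without Wassilewskija replicate B (0.0664, 7.07-fold). Without Wassilewskija replicate A it was 33.7-fold.

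AT4G14090, whose product glucosylates anthocyanins, had a larger log2 fall than the other 3 genes in every mutant of the first set and in psae1-3 stn7-1, a difference between genes that was not tested. In psae1-3 both AT4G14090 and DFR had a signal under the background, so their order is not set there. Its signals were 160, 201 and 149 in Col-0 and 13.3, 21.4 and 18.4 in stn7-1. In psad1-1 it read 24.6 and 24.2, and in psad1-1 stn7-1 40.1, 28.2 and 28.4. The 4 genotypes of the first set did not overlap with each other on any array, in the order Col-0, psad1-1 stn7-1, psad1-1, stn7-1. Against Col-0 AT4G14090 fell 9.70-fold in stn7-1 (−3.28 log2, SE 0.64, limma adjusted p = 0.00294) and 6.91-fold in psad1-1 (−2.79 log2, SE 0.72, limma adjusted p = 0.00545). In psad1-1 stn7-1 it fell 5.30-fold (−2.41 log2, SE 0.64, limma adjusted p = 0.00655).

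AT4G14090 read 88.0 and 314 in Wassilewskija, 16.6 and 0.897 in psae1-3 and 11.4 and 3.45 in psae1-3 stn7-1. Replicate B of each mutant was under the background and replicate A above it. The falls were at least 14.3-fold in psae1-3 (−5.02 log2, SE 0.79, limma adjusted p = 0.00123) and at least 17.2-fold in psae1-3 stn7-1 (−4.73 log2, SE 0.79, limma adjusted p = 0.000644). Both passed without each array in turn, but their size moved with single arrays. In psae1-3 the limit was 27.0-fold without Wassilewskija replicate A, 7.56-fold without Wassilewskija replicate B and 20.4-fold without psae1-3 replicate A, and the fall was 10.0-fold without psae1-3 replicate B. In psae1-3 stn7-1 the limit was 32.5-fold without Wassilewskija replicate A and 9.11-fold without Wassilewskija replicate B.

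UF3GT, a further anthocyanin glycosyltransferase, read 97.5, 186 and 124 in Col-0 and 22.2, 25.4 and 18.3 in stn7-1. It read 30.6 and 17.7 in psad1-1 and 38.7, 34.9 and 31.0 in psad1-1 stn7-1. The mutants were again all below Col-0, and psad1-1 spanned the range of stn7-1. UF3GT fell 6.02-fold in stn7-1 (−2.59 log2, SE 0.42, limma adjusted p = 0.00093) and 5.65-fold in psad1-1 (−2.50 log2, SE 0.46, limma adjusted p = 0.000471). In psad1-1 stn7-1 it fell 3.78-fold (−1.92 log2, SE 0.42, limma adjusted p = 0.00146). All 3 calls were kept without each array in turn.

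UF3GT read 30.4 and 98.1 in Wassilewskija, 20.6 and 6.77 in psae1-3 and 13.4 and 9.78 in psae1-3 stn7-1. The wild-type arrays were above both mutants, and psae1-3 replicate B was under the background. The fall was at least 4.22-fold in psae1-3 (−2.21 log2, SE 0.51, limma adjusted p = 0.0108) and 4.77-fold in psae1-3 stn7-1 (−2.25 log2, SE 0.51, limma adjusted p = 0.00611). The psae1-3 call was lost without Wassilewskija replicate B (0.154, at least 2.35-fold), without psae1-3 replicate B (0.124, 2.65-fold) and when only the second set was fitted (0.0522). The psae1-3 stn7-1 call was lost without Wassilewskija replicate B (0.111, 2.66-fold) and without psae1-3 stn7-1 replicate B (0.0537). Without Wassilewskija replicate A the falls were at least 7.58-fold and 8.58-fold in these mutants, and without psae1-3 replicate A that in psae1-3 was at least 6.70-fold.

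UGT78D2 followed another order. It read 283, 309 and 267 in Col-0 and 176, 192 and 189 in stn7-1. It read 300 and 319 in psad1-1 and 460, 523 and 614 in psad1-1 stn7-1. The double mutant was above every other array of the series, psad1-1 overlapped with Col-0, and stn7-1 was below Col-0. UGT78D2 fell by 0.62 on the log2 scale in stn7-1 (1.54-fold, SE 0.15, limma adjusted p = 0.00933) and rose by 0.89 log2 in psad1-1 stn7-1 (1.85-fold, SE 0.15, limma adjusted p = 0.000174). The difference in psad1-1 was 0.11 log2 (95% interval −0.24 to 0.47, limma adjusted p = 0.621). The root marker PYK10 (1 of 2 root markers listed) had its highest signals in psad1-1 stn7-1 too, but was also above Col-0 in psad1-1 and ranged higher in stn7-1, where UGT78D2 fell. It read 19.2 to 37.1 in Col-0, 29.7 to 60.4 in stn7-1, 208 to 359 in psad1-1 and 442 to 576 in psad1-1 stn7-1. On the second set's arrays PYK10 was under the background. Its part in the UGT78D2 result was not tested.

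In the second set UGT78D2 read 185 and 270 in Wassilewskija, 156 and 114 in psae1-3 and 204 and 191 in psae1-3 stn7-1. The psae1-3 arrays were the lowest, and psae1-3 stn7-1 lay within the wild-type range. The fall in psae1-3 was 1.67-fold (−0.74 log2, SE 0.18, limma adjusted p = 0.0146). It was lost without Wassilewskija replicate B (0.186) or psae1-3 replicate B (0.146), under scaling to the array median (0.0692) and when only the second set was fitted (0.056). In psae1-3 stn7-1 the difference was −0.18 log2 (95% interval −0.57 to 0.20, limma adjusted p = 0.555).

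**Figure D2:**
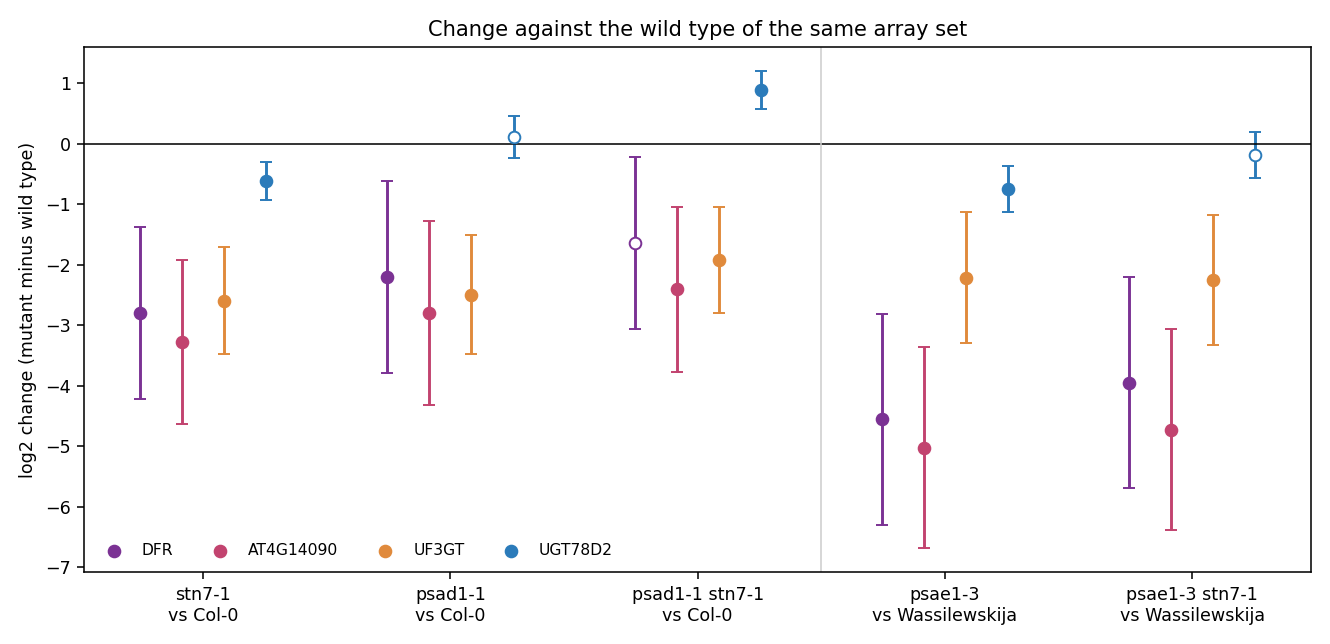
Log2 change of each gene in 5 mutants against the wild type of the same array set, with 95% intervals from the limma fit. Filled points passed at an adjusted p of 0.05 and open points did not. DFR, AT4G14090 and UF3GT lie between −1.64 and −5.02 log2, where the points for psae1-3, and for AT4G14090 in psae1-3 stn7-1, include a signal under the background, and UGT78D2 between −0.74 and 0.89 log2.

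To compare the late genes with UGT78D2 on the same array, the log2 signal of UGT78D2 was subtracted from that of each late gene, and the difference was compared between genotypes. This cancels any factor that scales an entire array. The shift of DFR relative to UGT78D2 was −2.18 log2 in stn7-1, −2.32 in psad1-1 and −2.52 in psad1-1 stn7-1. For AT4G14090 it was −2.66, −2.90 and −3.29 log2 in the same mutants, and for UF3GT −1.97, −2.61 and −2.80 log2. In psae1-3, with signals under the background raised to it, it was −2.98 log2 or lower for DFR, −3.09 or lower for AT4G14090 and −1.33 or lower for UF3GT. With 1 array left out these limits ranged from −3.83 to −2.12, −3.74 to −2.45 and −1.90 to −0.76 log2, each lowest without Wassilewskija replicate A and highest without Wassilewskija replicate B. In psae1-3 stn7-1 it was −3.77 log2 for DFR, −3.92 or lower for AT4G14090 and −2.07 for UF3GT. Leaving out 1 array moved these to between −4.62 and −2.91 log2 for DFR and −4.57 and −3.28 log2 for AT4G14090, and to between 6.25-fold and 2.83-fold lower for UF3GT, with the same Wassilewskija arrays at the ends. In all 15 of these comparisons the mutant arrays did not overlap with the wild type. The comparisons of a set share their wild-type arrays. The share of all probe sets whose arrays separate in this way was not computed, here or for other comparisons in the text.

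A single mutant is too small a group for an exact test of this difference, since the smallest two-sided permutation p is 0.1 in the first set and 0.333 in the second. Over all mutants against the wild types, with labels permuted within each array set, the mean shift relative to UGT78D2 was −3.07 log2 for DFR, −3.68 for AT4G14090 and −2.11 for UF3GT. Each had an exact two-sided permutation p of 0.00040404 (2475 arrangements, adjusted p = 0.00040404 over the 3 genes), the smallest that the design allows. These means hold the signals under the background, in psae1-3 and for AT4G14090 also in psae1-3 stn7-1, at their own level or at 1.57. With the background as the floor they were −2.86, −3.23 and −2.07 log2, with the same p. The genes were chosen with earlier results of these data known, so these p-values describe the arrays and are no fresh test. The 3 late genes also followed each other closely (r from 0.91 to 0.98 over the arrays), so their p-values are not separate results. In the first set, DFR minus UGT78D2 was −0.82 to −0.06 log2 in Col-0 and −3.61 to −1.96 log2 in the mutants. The corresponding ranges were −0.84 to −0.62 and −4.43 to −3.17 log2 for AT4G14090, and −1.54 to −0.73 and −4.31 to −2.92 log2 for UF3GT. In the second set the mutant arrays reached −2.60 log2 at most for DFR, −3.23 for AT4G14090 and −2.92 for UF3GT, and the lowest Wassilewskija values were −1.08, −1.07 and −2.60 log2.

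**Figure D3:**
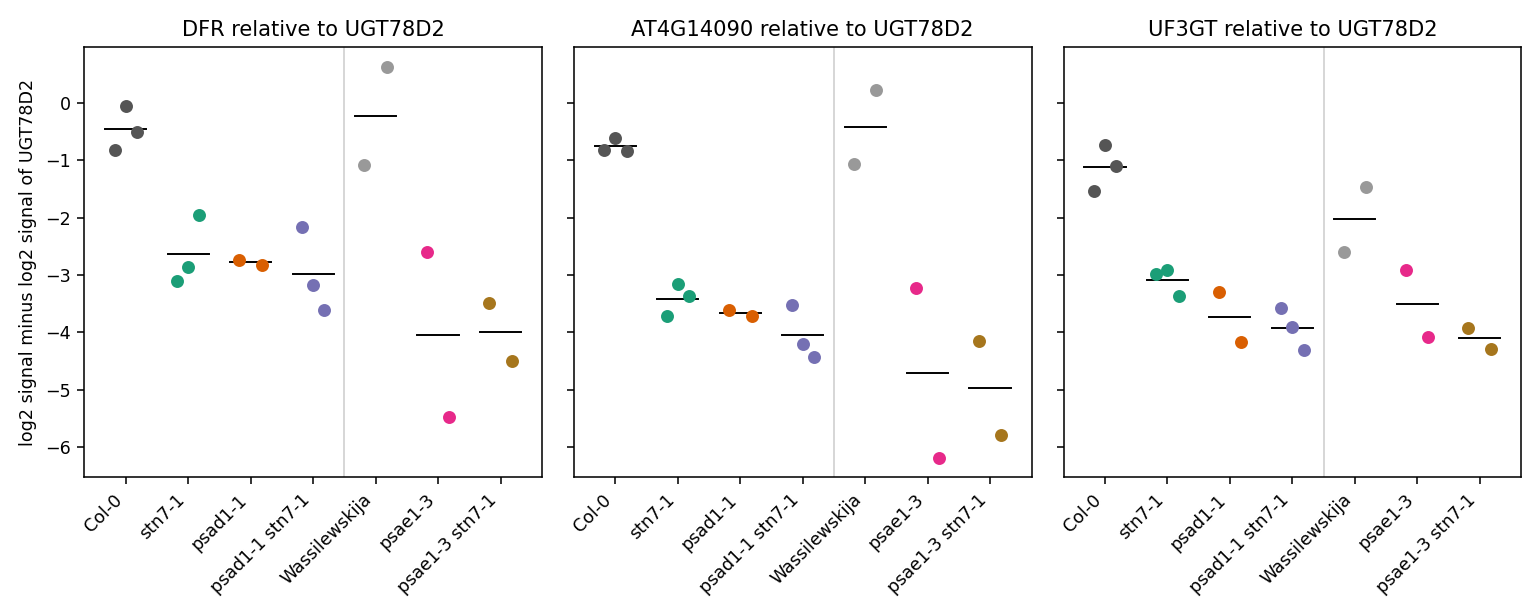
Log2 signal of each late gene minus that of UGT78D2 on the same array (points) with the mean of each genotype (bars), for the 2 array sets left and right of the vertical line. Levels are comparable between genotypes of the same array set within a panel, not between genes or sets. The mutant arrays lie below the wild type of their set in every panel. In psae1-3, and for AT4G14090 in psae1-3 stn7-1, the lowest points include signals under the background.

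The change that went with stn7-1 differed between genetic backgrounds for UGT78D2 under all alternatives tried, 21 with psad1-1 and 19 with psae1-3. For the late genes the tests passed too, but not under every alternative (DFR with psad1-1 under 10 of 21). Their tests are also limited by the background, as given below. With psae1-3 the contrast crosses the array sets for every gene. On its own, stn7-1 went with lower signals of all 4, as given above. In psad1-1 the addition of stn7-1 shifted DFR by 0.57 log2 (95% interval −1.02 to 2.16, limma adjusted p = 0.764), AT4G14090 by 0.38 (−1.14 to 1.90, 0.849) and UF3GT by 0.58 (−0.40 to 1.56, 0.58). None of the 3 late genes passed. The psad1-1 stn7-1 arrays were above the psad1-1 arrays for each, an order whose share over all probe sets was not computed. The late genes follow each other closely, so these are not 3 separate results. UGT78D2 rose by 0.77 log2 (SE 0.17, limma adjusted p = 0.0289), where 1.23% of probe sets were higher. The UGT78D2 call was lost without psad1-1 replicate A (adjusted p = 0.0839) or B (0.247), and without psad1-1 stn7-1 replicate B (0.0866) or C (0.113). It was also lost with arrays scaled to their median (0.0568) and without the filter on low probe sets (0.0688).

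The difference between the STN7 effects with and without psad1-1 (the interaction) was positive for all 4 genes, where 5.80% of probe sets were higher. It was 3.37 log2 for DFR (SE 1.01, limma adjusted p = 0.0401), 3.66 for AT4G14090 (SE 0.96, 0.0229), 3.17 for UF3GT (SE 0.62, 0.00606) and 1.39 for UGT78D2 (SE 0.22, 0.00249). The UGT78D2 call was kept without each array in turn. For DFR the call was lost on leaving out any 1 of 8 arrays, namely Col-0 B (0.0793) and C (0.0668), stn7-1 A (0.0869) and B (0.074), psad1-1 A (0.0836) and B (0.13), and psad1-1 stn7-1 A (0.0824) and B (0.0675). AT4G14090 was lost without stn7-1 replicate A (0.0518) and psad1-1 replicate A (0.0529) or B (0.0934), and UF3GT without psad1-1 replicate B (0.0508). Without the filter on low probe sets, the DFR and AT4G14090 interactions had adjusted p = 0.123 and 0.0813.

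Had the 2 single changes added on the log2 scale, the double mutant would have read 6.46 for DFR, 2.52 for AT4G14090 and 3.86 for UF3GT, all under the background of 8.15. The measured geometric means were 66.8, 31.8 and 34.7, above the background. Signals as low as the added ones cannot be read, so the interactions of these 3 genes hold an unknown part from that limit. For UGT78D2 the added changes give 201, against a measured 529.

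The psad1-1 stn7-1 arrays were also above the stn7-1 arrays for each late gene, again with no share over all probe sets computed. The differences from stn7-1 of 1.16 log2 for DFR (limma adjusted p = 0.219), 0.87 for AT4G14090 (0.346) and 0.67 for UF3GT (0.254) did not pass. With only the first set fitted, DFR (0.0175) and AT4G14090 (0.00621) passed. UGT78D2 rose by 1.51 log2, a 2.84-fold difference (SE 0.15, limma adjusted p = 1.72e-06), where 13.0% of probe sets were higher.

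With psae1-3, none of the 4 genes passed for the addition of stn7-1, a comparison in which 12.3% of probe sets passed in either direction. The shifts were 0.61 log2 for DFR (95% interval −1.14 to 2.35, limma adjusted p = 0.704), 0.30 for AT4G14090 (−1.37 to 1.96, 0.859) and −0.04 for UF3GT (−1.12 to 1.03, 0.974). With signals under the background raised to it they were −0.23, −0.27 and −0.18 log2, so they carry no direction. UGT78D2 stood at 0.56 log2 (0.18 to 0.95, 0.0544), with both psae1-3 stn7-1 arrays above both psae1-3 arrays, and passed without psae1-3 replicate A (0.0315). Against the STN7 effect in Col-0, these shifts differed by 3.41 log2 for DFR (SE 1.06, limma adjusted p = 0.0293), 3.57 for AT4G14090 (SE 1.01, 0.0181), 2.55 for UF3GT (SE 0.66, 0.0107) and 1.18 for UGT78D2 (SE 0.24, 0.00199). In this contrast 12.2% of probe sets were higher. It sets an effect in the second array set against one in the first, so differences of accession or array set cannot be told apart from those of genotype here.

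In the psae1-3 contrast the added changes give 1.16 for DFR, 0.527 for AT4G14090 and 1.96 for UF3GT, again under the background. The geometric means were 8.12, 5.11 and 11.8 in psae1-3 and 12.4, 6.28 and 11.4 in psae1-3 stn7-1. A further fall as large as that in Col-0 could not have been read from there. For the 3 late genes the contrast therefore cannot decide whether the STN7 effect differed. For UGT78D2 the added changes give 86.8 against a measured 197. For DFR this call was lost on leaving out Col-0 B (0.0592), stn7-1 A (0.0632) or B (0.0537), psae1-3 B (0.18, at 1.74 log2) or psae1-3 stn7-1 A (0.139), and the difference was 5.07 log2 without psae1-3 A. AT4G14090 and UF3GT lost it without psae1-3 replicate B (0.0995 and 0.0672, at 1.87 and 1.74 log2) or psae1-3 stn7-1 replicate A (0.12 and 0.0562, with AT4G14090 at 2.71 log2). Their differences were 5.27 and 3.35 log2 without psae1-3 replicate A, and that of AT4G14090 was 4.44 log2 without psae1-3 stn7-1 replicate B. Without the filter on low probe sets, DFR (0.0945) and AT4G14090 (0.0671) did not pass. UGT78D2 passed without each array in turn.

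**Figure D4:**
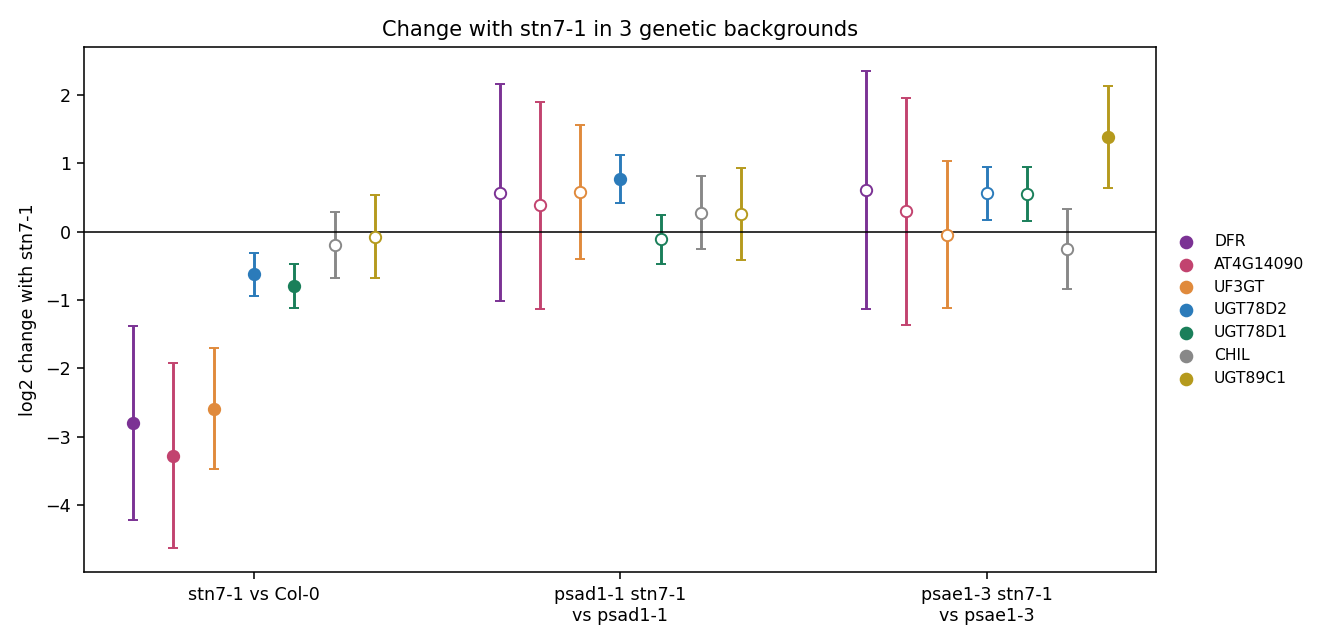
Log2 change that goes with stn7-1 in 3 genetic backgrounds, with 95% intervals from the limma fit, for the 4 genes and 3 further flavonoid genes. Filled points passed at an adjusted p of 0.05. UGT78D2 moves from −0.62 log2 in Col-0 to 0.77 with psad1-1 and 0.56 with psae1-3, and the late genes from at most −2.59 to values between −0.04 and 0.61, which with psae1-3 include signals under the background.

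Between the 2 wild types, DFR (−0.12 log2 in Wassilewskija against Col-0, limma adjusted p = 0.906) and AT4G14090 (−0.02 log2, 0.983) did not pass, and the arrays of both accessions overlapped. UF3GT was lower in Wassilewskija by 1.26 log2 (SE 0.46, limma adjusted p = 0.0347), where 22.4% of probe sets were lower, but the arrays overlapped. That call was lost without Col-0 replicate B (0.112) or C (0.0624), without Wassilewskija replicate A (0.53, at −0.42 log2), with arrays scaled to their median (0.0585) and without the filter (0.0837), and without Wassilewskija replicate B the difference was −2.11 log2. UGT78D2 differed by −0.35 log2 (limma adjusted p = 0.0909), and passed without Wassilewskija replicate B (0.0164).

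With both array sets pooled, the late genes varied more between arrays of a genotype than nearly all other probe sets, and they did so together. The residual SD of the log2 signal within genotypes was 1.03 for DFR, 0.97 for AT4G14090 and 0.61 for UF3GT, at the 99.9th, 99.8th and 98.3rd percentile of all tested probe sets. For UGT78D2 it was 0.19, beside a median of 0.19 over all. With signals under the background raised to it, the SD was 0.80 for DFR, 0.53 for AT4G14090, 0.58 for UF3GT and 0.19 for UGT78D2. The percentiles were not computed at this floor. The largest deviations lay in the second set, at 1.67 log2 for DFR, 1.70 for AT4G14090 and 0.85 for UF3GT. In the first set they were at most 0.71, 0.38 and 0.51 log2. The fit uses 1 estimate of the spread per gene for both sets, so the second set also enters the SEs of the first. Across the 17 deviations from the genotype means, DFR and AT4G14090 correlated at r = 0.94 (Spearman rho 0.91), DFR and UF3GT at 0.83 (0.67), and AT4G14090 and UF3GT at 0.83 (0.76). With UGT78D2 the values were 0.67 (0.59) for DFR, 0.71 (0.72) for AT4G14090 and 0.69 (0.59) for UF3GT. Without the 2 psae1-3 arrays, which lie farthest apart for DFR and AT4G14090, r was 0.87, 0.72 and 0.74 among the late genes and 0.50, 0.57 and 0.55 with UGT78D2 (15 arrays). These are descriptions: the 4 genes share each array's RNA and scaling, and in groups of 2 arrays both deviations have the same size.

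Single arrays show the shared variation in some genotypes and not in others. Col-0 replicate B was the highest Col-0 array for all 4 genes, Wassilewskija replicate B was above replicate A for all 4, and replicate A of psae1-3 and of psae1-3 stn7-1 was above replicate B for all 4. Replicate A of psad1-1 stn7-1 went the other way for the shared gene. It was the highest of its genotype for DFR, AT4G14090 and UF3GT and the lowest for UGT78D2. In stn7-1 the late genes did not move together. Replicate C was the highest for DFR (0.71 log2 above the genotype mean) and the lowest for UF3GT (−0.25), and replicate B was the highest for AT4G14090 (0.30). In psad1-1 the arrays deviated by 0.40 log2 for UF3GT, against 0.004 for DFR and 0.01 for AT4G14090.

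**Figure D5:**
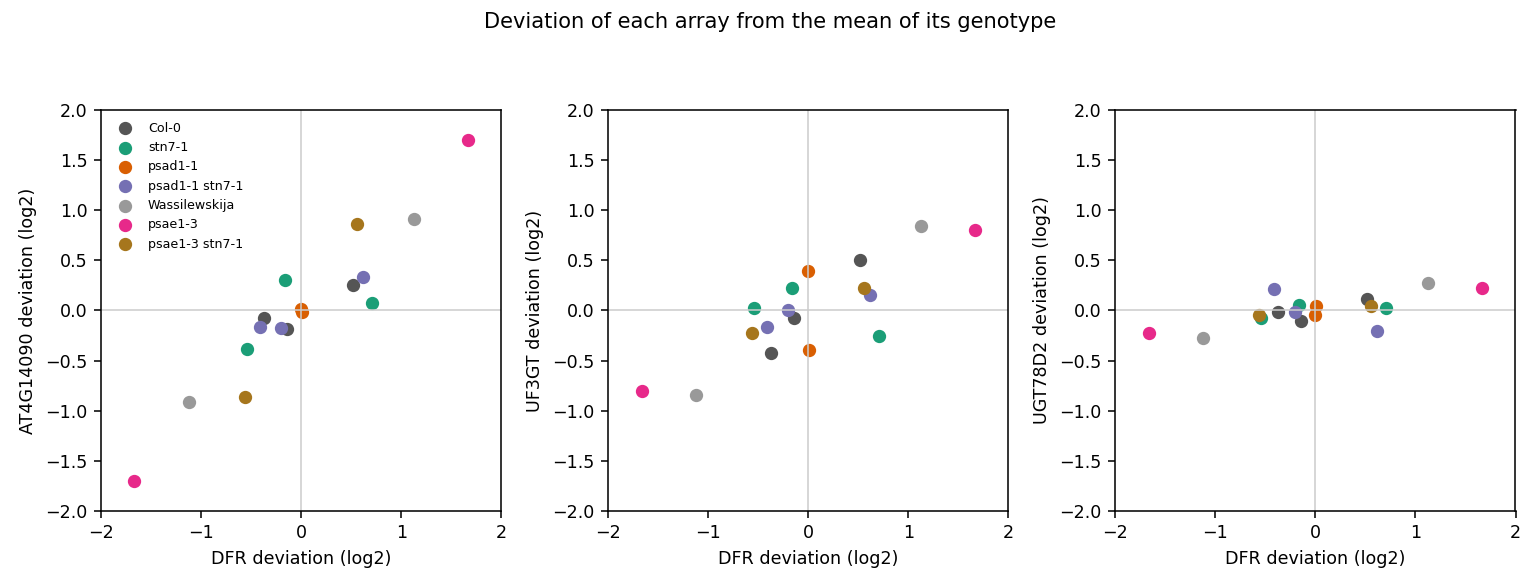
Deviation of each of 17 arrays from the mean log2 signal of its genotype, for DFR on the horizontal axis and AT4G14090, UF3GT or UGT78D2 on the vertical axis, coloured by genotype. Points for AT4G14090 follow DFR over a range of about the same width (r = 0.94), while those for UGT78D2 stay within a narrow band around 0.

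Of 53 genes in lists of the flavonoid pathway and its regulators, 10 had a listed probe set and 7 were tested. The 7 were the 4 genes above and CHIL, UGT78D1 and UGT89C1 of the early flavonoid and flavonol list (3 tested of 10). The lists of general phenylpropanoid genes (8), of regulators that raise the pathway (12) and of regulators that lower it (9) had none listed, so the regulators of the late genes were not analysed here. Of the late anthocyanin list, 5 of 11 were listed. The fifth, the anthocyanin malonyltransferase gene 5MAT, was below the filter on low signals. Its signals were 24.5 to 34.6 in Col-0 and 7.24 to 13.1 in stn7-1, 9.02 to 14.5 in psad1-1 and 15.2 to 23.9 in psad1-1 stn7-1, so it too was below Col-0 on every mutant array of the first set. In the second set it read 11.7 and 30.4 in Wassilewskija, 9.30 and 0.507 in psae1-3 and 0.691 and 8.36 in psae1-3 stn7-1. With no filter 5MAT passed in no mutant. The limma adjusted p was 0.193 in stn7-1, 0.239 in psad1-1, 0.596 in psad1-1 stn7-1, 0.13 in psae1-3 and 0.104 in psae1-3 stn7-1. In stn7-1, psae1-3 and psae1-3 stn7-1, 1 array each was under the background. With that signal raised to it the changes were −1.53, −1.12 and −1.19 log2. UGT78D3, which lies beside UGT78D2 on chromosome 5 with only AT5G17040 between them, read 0.35 to 3.18, under the background on all 17 arrays, as did the proanthocyanidin gene BAN.

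UGT78D1, which encodes a flavonol rhamnosyltransferase, fell in stn7-1 from 354–375 in Col-0 to 197–241 (−0.79 log2, SE 0.15, limma adjusted p = 0.00262), and CHIL and UGT89C1 did not pass. None of the 3 passed in psad1-1 or psad1-1 stn7-1 against Col-0, although UGT78D1 passed in the double mutant with the first set alone (0.0471). Their median change was −0.19 log2 in stn7-1, −0.25 in psad1-1 and −0.36 in psad1-1 stn7-1. In psae1-3 all 3 were lower than in Wassilewskija (background 6.90%), with a median of −1.20 log2, against −0.11 log2 over all tested probe sets. CHIL, a chalcone isomerase-like protein that promotes flavonoid synthesis, fell there by 1.51 log2 (limma adjusted p = 0.00297), UGT78D1 by 1.04 log2 (0.00262) and UGT89C1, a further flavonol rhamnosyltransferase gene, by 1.20 log2 (0.0349). The UGT89C1 call was lost without any 1 of the arrays Wassilewskija A (0.101), Wassilewskija B (0.149) and psae1-3 B (0.356, at −0.53 log2), and it was at −1.88 log2 without psae1-3 A. It was also lost by quantile (0.104) or median (0.0668) scaling, with 16 added before the log (0.0626), with no filter (0.0922), with no variance trend (0.0502), with the second set alone (0.0669) and with the replicate block (0.0553), so it kept its side of the threshold under 4 of 14 alternatives.

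In psae1-3 stn7-1, CHIL was lower than in Wassilewskija (−1.77 log2, limma adjusted p = 0.000391), and UGT78D1 and UGT89C1 did not pass. UGT89C1 was higher in psae1-3 stn7-1 than in psae1-3 (1.39 log2, limma adjusted p = 0.0151), but not past the threshold without psae1-3 replicate B (0.204, at 0.71 log2), without psae1-3 stn7-1 replicate A (0.127) or with no filter (0.0535). Without psae1-3 replicate A it was 2.06 log2. Between the wild types, UGT89C1 (−2.15 log2, limma adjusted p = 6.43e-05) and CHIL (−1.37 log2, 0.000398) were lower in Wassilewskija. The interaction with psad1-1 passed for none of the 3 (limma adjusted p 0.0619 for UGT78D1, 0.397 for CHIL, 0.665 for UGT89C1). The STN7 effect with psae1-3 minus that without it was 1.34 log2 for UGT78D1 (limma adjusted p = 0.000882) and 1.46 log2 for UGT89C1 (0.0281). As above, accession or array set cannot be told apart from genotype in this contrast. The UGT89C1 call was lost by median (0.0529) or quantile (0.0521) scaling, with no filter (0.0832), and without stn7-1 A (0.0668), stn7-1 C (0.0545), psae1-3 stn7-1 A (0.114) or psae1-3 B (0.174, at 0.79 log2), and it was 2.14 log2 without psae1-3 A. UGT78D1 rose in psad1-1 stn7-1 against stn7-1 by 0.44 log2 (limma adjusted p = 0.0415), and its arrays there (257 to 310) were below those of Col-0. That call was lost without stn7-1 replicate A (0.134) or B (0.113) and without psad1-1 stn7-1 replicate B (0.138) or C (0.0984). It was also lost by median scaling (0.0605), with no filter (0.0804), with no variance trend (0.0571) and with the replicate block (0.0552).

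Across the 17 arrays, with the mean of each array set removed, the 2 genes closest to DFR among 7332 genes were AT4G14090 (r = 0.98) and UF3GT (r = 0.91). UGT78D2 was at rank 1192 with r = 0.43. The genes most like DFR outside the 4 were AT3G48020 (r = 0.90), AT1G80130 (0.88), AT3G03590 (0.87), AT5G18550 (0.86) and PAHX (AT2G01490, 0.86). The genes most like UGT78D2 were AT4G30470 (0.93), AT2G35736 (0.92), AT1G75170 (0.90), AT2G44670 (0.89) and AT3G47295 (0.89). AT4G30470 had a mean signal of 175 in Col-0, 107 in stn7-1, 249 in psad1-1 and 364 in psad1-1 stn7-1, the order seen for UGT78D2. With only the 11 arrays of the first set, 3 of the 5 genes closest to UGT78D2 were the same and 0 of the 5 closest to DFR. The arrays share genotypes and scaling, and these correlations carry no test.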

How the data were processed

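The authors deposited signal intensities on a linear scale, made with GCOS and MAS5 per the submitters' processing notes (with versions not given in the sources used here). Every array was rescaled here to a 2% trimmed mean of 100, low values were raised to the 10th percentile of all signals (1.57) and the rest put on a log2 scale. Control probe sets (64) and the dimmest 40% of the others were not tested, so 13648 entered the fit. limma 3.58.1 in R 4.3.3 estimated 1 mean for each genotype from all 17 arrays, with moderated variances and a trend (10 residual and 6.04 prior degrees of freedom). Tests are two-sided, and p-values were adjusted by Benjamini and Hochberg's method over the 13648. The background of 8.15 comes from 315 values of controls without a target, and "at least" before a fold means that signals under it were raised to it. The number of arrays limits the precision, and p-values measure the spread between pools of plants.

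The background and the floor at it were chosen after the data were seen, and the 4 genes, the gene and marker lists and the tests with earlier results of these data known. Named genes were the 4, members of the lists, and the 5 with the highest set-centred Pearson r with DFR and with UGT78D2. The annotation lists 14016 of 22810 probe sets, 13513 with 1 gene, and symbols follow RefSeq. The fit was tested on simulated data. Alternatives were scaling to the median or by quantiles, other floors, an added offset of 16, no filter, no trend, 1 array set alone, the replicate letter as a block, and leaving out each array.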

Additional observations from a re-analysis of the deposited data

Results flagged for a closer look

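Differences between STN7 effects passed the test for the following genes. With psad1-1 against without it, the STN7 effect differed by 3.37 log2 for DFR, 3.66 log2 for AT4G14090, 3.17 log2 for UF3GT and 1.39 log2 for UGT78D2. In that order, these calls were kept under 10, 17, 20 and 21 of 21 alternatives. Of all probe sets, 5.80% were higher. With psae1-3 against without it, the STN7 effect differed by 3.41 log2 for DFR, 3.57 log2 for AT4G14090, 2.55 log2 for UF3GT and 1.18 log2 for UGT78D2. In that order, these calls were kept under 13, 16, 17 and 19 of 19 alternatives. This contrast crosses the array sets, and 12.2% of all probe sets were higher. The same contrast gave 1.34 log2 for UGT78D1 and 1.46 log2 for UGT89C1, the latter past the threshold under 12 of 19 alternatives and at 0.79 log2 without psae1-3 replicate B. With low signals set to the background of 8.15, a floor added after the data were seen, the psae1-3 differences were 2.57, 3.01, 2.41 and 1.18 log2 for DFR, AT4G14090, UF3GT and UGT78D2. At this floor psae1-3 stn7-1 differed from psae1-3 by −0.23, −0.27 and −0.18 log2 for the 3 late genes. Their differences thus mostly repeat the stn7-1 falls in Col-0 (−2.80, −3.28 and −2.59 log2) with the sign turned. For these genes they cannot decide whether the STN7 effect changed. No group had the 4 arrays that a check for a single outlying array needs.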

How the results depend on the processing

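Losses of calls for CHIL, UGT78D1 and UGT89C1 stand beside their values above. Of 432 tests of the 4 genes under another setting, 411 kept their side of the threshold, as did 224 of 264 with an array left out, and no called change turned its sign. Values in this paragraph are limma adjusted p unless given as counts. With arrays scaled to their median, UGT78D2 was at 0.0568 between psad1-1 stn7-1 and psad1-1 and 0.0692 in psae1-3, and UF3GT at 0.0585 between the wild types. DFR in psad1-1 stn7-1 against Col-0 passed with a floor at the 25th percentile (0.018), with 16 added before the log (0.0105), with the floor at background (0.0181) and with the first set alone (0.00142). With no filter, DFR in psad1-1 was at 0.0912, UGT78D2 between psad1-1 stn7-1 and psad1-1 at 0.0688, the interactions of DFR and AT4G14090 at 0.123 and 0.0813, their psae1-3 STN7 differences at 0.0945 and 0.0671, and UF3GT between the wild types at 0.0837. Without the variance trend the DFR interaction was at 0.0594. With 1 set alone, DFR and AT4G14090 passed between psad1-1 stn7-1 and stn7-1 (0.0175 and 0.00621), and UF3GT and UGT78D2 in psae1-3 did not (0.0522 and 0.056). This setting cannot be run for contrasts across sets. The count of 285 probe sets between psad1-1 stn7-1 and psad1-1 was 112 with no filter, 177 without trend, 120 with the first set alone and 47 with the replicate block. The cause of these shifts was not tested.

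The labels do not state whether the replicate letters pair the arrays, and the values here cannot decide it. The deviations of same-letter arrays had correlations from −0.22 to 0.27 (first set) and from −0.10 to −0.04 (second set). Arrays with different letters were not compared as a baseline. In the second set, replicates A and B of a genotype deviate by equal and opposite amounts, so their pairs give the same value by construction. With the replicate block, UGT78D2 between psad1-1 stn7-1 and psad1-1 was at 0.0854 and the DFR interaction at 0.0698, and no other call of the 4 genes changed.

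Leaving out 1 array at a time moved DFR in psad1-1 between 0.033 and 0.111, and in psae1-3 stn7-1 between 0.00213 and 0.0664. The interaction ranged from 0.0354 to 0.13 for DFR, 0.0295 to 0.0934 for AT4G14090 and 0.00515 to 0.0508 for UF3GT. The psae1-3 STN7 difference ranged from 0.00127 to 0.18, 0.000356 to 0.12 and 0.00259 to 0.0672 for the same genes. In psae1-3, UF3GT ranged from 0.00322 to 0.154 and UGT78D2 from 0.00607 to 0.186, and in psae1-3 stn7-1 UF3GT from 0.00124 to 0.111. UGT78D2 ranged from 0.0162 to 0.247 between psad1-1 stn7-1 and psad1-1 and from 0.0315 to 0.365 between psae1-3 stn7-1 and psae1-3. Between the wild types UF3GT ranged from 0.00459 to 0.53 and UGT78D2 from 0.0164 to 0.762. Counts of probe sets ranged from 1326 to 2685 in stn7-1, 19 to 366 between psad1-1 stn7-1 and psad1-1, 411 to 1837 for the interaction, 548 to 1245 in psae1-3, 1274 to 1547 in psae1-3 stn7-1, 769 to 1335 between psae1-3 stn7-1 and psae1-3, and 1917 to 3201 for the psae1-3 STN7 difference. With 1 array left in a group, that array is assumed to vary like the other groups.

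The share of called probe sets that were higher moved with median scaling from 51.5% to 71.7% in stn7-1, 47.8% to 63.6% in psad1-1, 47.1% to 58.0% in psad1-1 stn7-1, 58.9% to 43.4% between psad1-1 stn7-1 and psad1-1, and 49.1% to 24.9% for the interaction. It moved from 44.0% to 77.5% in psae1-3 (55.4% by quantiles), 60.9% to 41.6% between psae1-3 stn7-1 and psae1-3, 53.3% to 30.8% for the psae1-3 STN7 difference and 52.3% to 69.4% between the wild types. The median of all probe sets in psad1-1 moved from −0.02 to 0.12 log2, in psae1-3 from −0.11 to 0.06, between psae1-3 stn7-1 and psae1-3 from 0.01 to −0.10, for the interaction from 0.01 to −0.14, for the psae1-3 STN7 difference from 0.05 to −0.16 and between the wild types from 0.03 to 0.21.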
